A study of Mus musculus with 30 samples.

Results

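The genes examined were those of the nuclear-encoded respiratory chain, the structural subunits of complexes I to V of oxidative phosphorylation, in day-5 embryoid bodies (EB) and in undifferentiated embryonic stem cells (ESC) of mouse. Members were chosen by symbol from array probe sets annotated with 1 gene: Nduf followed by a, b, c, s or v and a number, Sdha to Sdhd, Uqcr, Cox4 to Cox8, and Atp5, with assembly factors left out. This gave 81 genes on 164 probe sets, of 18193 genes with a probe set of 1 symbol. Each gene was read from its probe set with the highest mean log2 signal over the 30 arrays. Complex I had 35 members, complex II had 4, complex III had 8, complex IV had 17 and complex V had 17. A filter on dim probe sets left 80 members among 13250 tested genes. The member it removed was Ndufb4, a membrane-arm subunit of complex I, which had a mean log2 level of 5.49 and stood at the lowest value of the array on 15 of the 30 arrays.

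EB were differentiated progeny of the R1 embryonic stem cell line grown for 5 days without LIF, and ESC were the same line kept with LIF, the cytokine that holds mouse stem cells undifferentiated. All cultures of both states were exposed to cycloheximide, a blocker of ribosome movement, at 150 ug/ml for 15 min before harvest. Cytoplasmic lysate was spun through a sucrose gradient, 12 fractions were joined into 4 pools, and each pool, like lysate kept off the gradient (total RNA), was put on an Affymetrix array of its own, with 3 biological replicates (cultures) in each of 10 groups. Nothing in the labels tells whether pool 1 was the light or the heavy end, and the pools keep their numbers here. Labelling started from 2.5 ug of RNA for every array. On the deposited scale the spike controls (probe sets for Dap, Lys, Phe and Thr) were nearly level, with array means of log2 9.43 to 9.78. Deposited signals may thus be relative to these controls. They were taken neither as a share of the RNA in a pool nor as an amount in the gradient. In such bulk RNA, fewer cells that express a gene and less RNA per cell cannot be told apart.

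Complex I passes electrons from NADH to ubiquinone, complex II passes them from succinate, complex III passes them on to cytochrome c, and complex IV reduces oxygen. Complexes I, III and IV pump protons, and complex V, the ATP synthase, uses the proton gradient to make ATP. The core of most complexes is joined by many small accessory subunits, nearly all of them translated in the cytosol and imported, while a few core subunits are encoded in mitochondrial DNA. No probe set carried a symbol with the prefix mt- of mitochondrial DNA genes, and those subunits were not analysed here.

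The transcription factors NRF1, the ETS factor GABP and YY1 are textbook regulators of these genes, so promoters of members were searched for their binding motifs. RefSeq promoters on GRCm38.p6, from 250 bases before to 50 bases after the start site, were matched to 66 of the 81 members by gene ID, with the first listed promoter used for a gene. On either strand, CGCANGCG (the core of the NRF1 motif, N being any base) was found in 22 of the 66 promoters (33.3%), against 8.42% of all 27025 promoters of the table. CCGGAAG (ETS) was found in 16 (24.2%), against 9.12% of all promoters, and AAGATGGCG (YY1) in 5 (7.58%), against 1.49%. No match of 1 motif overlapped a match of another in these promoters. A match is a run of letters and not a shown binding site. The stretches below are shown because they come from members on both sides of the results: mRNAs of Cox6a1, Atp5k and Uqcr11 shifted between pools in EB, and those of Sdha and Sdhd did not pass that test. Each runs 5′ to 3′ on the gene's strand and lies before the start site, with NRF1 and ETS matches in capitals. They lie at chr5:115348959-115349139, minus strand (Cox6a1), chr5:108434421-108434468, minus strand (Atp5k), chr10:80406861-80406907, minus strand (Uqcr11), chr13:74350241-74350357, minus strand (Sdha) and chr9:50603869-50603947, minus strand (Sdhd).
Cox6a1: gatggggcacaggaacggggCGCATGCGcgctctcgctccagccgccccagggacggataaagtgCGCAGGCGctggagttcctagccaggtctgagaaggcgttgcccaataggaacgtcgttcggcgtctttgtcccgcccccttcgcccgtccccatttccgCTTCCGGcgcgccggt
Atp5k: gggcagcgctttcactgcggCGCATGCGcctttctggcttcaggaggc
Uqcr11: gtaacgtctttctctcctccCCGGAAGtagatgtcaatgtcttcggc
Sdha: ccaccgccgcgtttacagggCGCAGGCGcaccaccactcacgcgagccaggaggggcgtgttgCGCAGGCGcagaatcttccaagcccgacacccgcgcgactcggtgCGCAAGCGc
Sdhd: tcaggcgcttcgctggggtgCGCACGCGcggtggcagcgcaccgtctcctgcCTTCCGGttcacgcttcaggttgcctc
The Cox6a1 and Sdhd stretches hold matches of both kinds, the Atp5k and Sdha stretches hold NRF1 matches alone and the Uqcr11 stretch holds 1 ETS match. At or after the start site, and so outside the stretches shown, the Atp5k promoter also has an ETS match and the Uqcr11 promoter an NRF1 match. Of 21 tested members with an NRF1 match, 15 fell in the pool ratio described below, as did 14 of 16 with an ETS match, 3 of 5 with a YY1 match and 16 of 30 with a promoter and none of the 3 motifs. Over all members it was 48 of 80, and over all genes 5.16%, and no difference between these motif classes was tested.

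The arrays differed in brightness, with mean signals between 72.4 and 578 on the linear scale, and 18.2% to 59.0% of probe sets on the pool arrays stood at the lowest value. In total RNA 78.9% of all genes were called higher in EB on the deposited scale. Each comparison was therefore also made relative to all genes, after quantile normalization, and values below are log2 of signal plus 32 on that relative scale unless the deposited scale is named. The offset understates the differences of dim genes. On the deposited scale, where most genes were higher in EB, summed linear signals of 5 pluripotency markers (Pou5f1, Nanog, Sox2, Zfp42 and Sall4) in total RNA were 28917 to 35533 in EB and 14955 to 15817 in ESC. Relative to all genes their median difference was 0.02, with 1 of 5 called higher and none lower. Deposited sums of 6 primitive and visceral endoderm markers were 400 to 619 in EB and 42.5 to 109 in ESC, and 3 of the 5 tested were called higher relative to all genes (median 0.82). Deposited sums of 6 fibroblast markers, which feeder cells would carry, were 212 to 272 in EB and 111 to 188 in ESC, whereas relative to all genes the 3 tested ones lay below 0 (median -0.28, none called). Deposited sums of 3 mesoderm markers were 70.0 to 143 in EB and 37.1 to 57.9 in ESC, with a relative median of -0.05 and none called. Deposited sums of 4 neural markers were 381 to 556 in EB and 201 to 267 in ESC. Relative to all genes the neural median was -0.28, with 2 of 4 called lower and none higher (6.09% and 6.55% of all genes). The neural marker Sox1 averaged 5.48 in EB and 6.13 in ESC on the deposited scale, against the direction of the sum. The part of these markers in the results was not tested.

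The first comparison asked whether the abundance of these mRNAs differed between the states. In total RNA the respiratory chain genes rose in EB on the deposited scale, as most genes did, and relative to all genes 17 of them fell and 3 rose. On the deposited scale 77 of 80 members were called higher in EB (limma, Benjamini-Hochberg adjusted p under 0.05), where 78.9% of all genes were, and none was called lower (0.325% of all genes). Their median difference was 0.86, against 0.96 over all genes. With arrays scaled on the hybridisation controls instead, 5 members were called higher and these medians were 0.092 and 0.30. Relative to all genes, the 3 members called higher compare with 6.55% of all genes and the 17 called lower with 6.09%. The members' median difference was -0.25, against -0.00 over all genes, and the EB and ESC cultures did not overlap for 54 members (36.1% of all genes). Most members are abundant, with 63 of the 80 among the 10% of genes with the highest mean level. Of the genes at that level, 11.6% were called lower and cultures did not overlap for 62.6%. All 17 called lower are among those genes. On the deposited scale the median difference of these 63 members was 0.84, against 1.14 over all genes of that level. Of the 63, 62 were called higher on that scale, against 97.5% of all genes of that level.

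The 3 members that rose are isoforms known from particular tissues or conditions. Ndufa4l2, a paralogue of Ndufa4 known as a hypoxia-inducible gene, had relative levels of 7.34, 7.79 and 7.63 in the EB cultures and 6.69, 6.31 and 6.09 in the ESC cultures. No EB culture overlapped an ESC culture, and the difference was 1.23 ± 0.19 (SE, limma adjusted p = 0.0109). Cox6b2, the testis isoform of subunit 6b, had levels of 9.16, 9.19 and 9.30 in EB and 8.33, 8.50 and 8.19 in ESC, a difference of 0.88 ± 0.12 (limma adjusted p = 0.00782). Cox7a1, the heart and skeletal muscle isoform of subunit 7a, had levels of 8.71, 8.58 and 8.66 in EB and 7.93, 7.88 and 7.88 in ESC, a difference of 0.75 ± 0.10 (limma adjusted p = 0.00731). On the deposited scale these isoforms had the 3 largest differences among members, 2.19, 2.16 and 2.01. The other tissue isoforms of complex IV stayed dim. Cox4i2, Cox7b2 and Cox8b were at the array's lowest value on 10, 10 and 14 of the 30 arrays, and with Cox6a2 and Cox8c their relative differences lay between -0.21 and 0.15 without passing the test.

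Widely expressed subunits of complex IV fell, among them the partners of Cox6b2 and Cox7a1. Cox6b1, which joins the monomers of complex IV, had relative levels of 11.80, 11.68 and 11.75 in EB and 12.37, 12.54 and 12.44 in ESC, and its difference was -0.71 ± 0.11 (limma adjusted p = 0.00993). Cox8a, a small transmembrane subunit, had levels of 9.43, 9.18 and 9.49 in EB and 10.07, 10.05 and 10.25 in ESC, and its difference was -0.75 ± 0.13 (limma adjusted p = 0.0147). Of its other probe sets, 1 fell by 1.00 and the other differed by 0.23 in the opposite direction, so the probe sets of Cox8a disagree. Cox6c fell by 0.67, Cox5b by 0.45 and Cox7a2, the partner of Cox7a1, by 0.37. In each of these genes every EB culture lay below every ESC culture. Cox4i1 (-0.09), Cox5a (-0.09), Cox6a1 (-0.40) and Cox7a2l (-0.02) did not pass the test.

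In complexes I, III and V the members that fell were accessory or small subunits, and catalytic ones did not pass the test. In complex III the hinge subunit Uqcrh had levels of 10.75, 10.79 and 10.94 in EB and 11.42, 11.46 and 11.56 in ESC, a difference of -0.66 ± 0.11 (limma adjusted p = 0.0135). Uqcr11 fell by 0.55 and Uqcr10 by 0.50, while the core proteins Uqcrc1 (0.19) and Uqcrc2 (-0.05) and the Rieske iron-sulfur protein Uqcrfs1 (-0.38) did not pass the test. In complex I, 5 of 18 membrane-arm accessory subunits fell: Ndufa13 by 0.62, Ndufa1 by 0.47, Ndufb10 by 0.45, Ndufb3 by 0.43 and Ndufb8 by 0.43. None of the 8 peripheral-arm accessory subunits and none of the 6 core subunits passed the test, and the core ranged between -0.41 (Ndufs1) and 0.37 (Ndufs3). In complex V, Atp5l fell by 0.58, Atp5k by 0.48, Atp5e by 0.45 and Atp5j by 0.40. The catalytic subunits Atp5b (0.27) and Atp5a1 (-0.08) and the 3 genes of the identical c-ring protein, Atp5g1 (0.06), Atp5g2 (0.20) and Atp5g3 (0.17), did not pass it. None of the 4 genes of complex II passed it either, with differences of 0.23 for Sdha, the flavoprotein, -0.12 for Sdhb, the iron-sulfur protein, and -0.30 and 0.08 for the membrane anchors Sdhc and Sdhd.

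The number of members called lower in total RNA depended on the fit: leaving out any 1 culture gave between 3 and 6 members called lower in place of 17, and a variance model with a trend on level called 39. The 3 members called higher were called without any 1 culture. The shares of all genes called under these fits are not given here, and the counts show only how the calls depended on the fit.

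**Figure D1:**
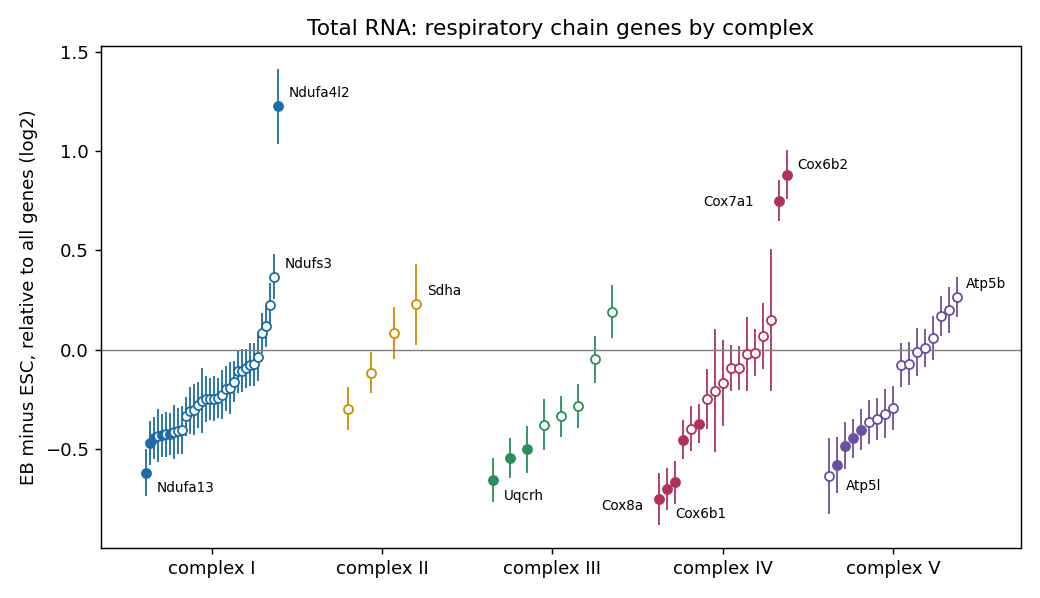
Each point is 1 of the 80 tested respiratory chain genes, placed by complex and ordered by value; the y axis is the EB minus ESC difference in total RNA relative to all genes (log2), bars are the SE of the limma fit (3 cultures a state) and filled points passed the test. Ndufa4l2 (1.23), Cox6b2 (0.88) and Cox7a1 (0.75) stand above the rest, and the filled points below 0 reach -0.75 at Cox8a.

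The second comparison asked whether these mRNAs lay in other parts of the gradient in EB than in ESC. Their position was measured in each culture as the pool ratio, the mean log2 level in pools 3 and 4 minus that in pools 1 and 2. Relative to all genes, 48 of 80 members had a lower pool ratio in EB than in ESC (5.16% of all genes were called lower) and none had a higher one (4.18% of all genes). The members' median difference was -0.70, against 0.01 over all genes, and EB and ESC cultures did not overlap for 62 members (31% of all genes). Over members, the median pool ratio was -1.05, -0.81 and -0.91 in the EB cultures and -0.14, -0.20 and -0.30 in the ESC cultures, so all EB cultures lay below all ESC cultures. Among the 63 members with the highest mean level 44 were called lower, against 16.2% of all genes of that level. Cultures did not overlap for 52 of these 63 members, against 60.8% of all genes of that level. Of the 48 members called lower, 15 were also called lower in total RNA and 33 were not.

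These are positions relative to other mRNAs. On the deposited scale the pool ratio of all genes was higher in EB by a median of 0.73, and that of members by a median of 0.45, with 35 members called higher (64.5% of all genes) and none called lower (0.0755% of all genes). Of the 10% of genes with the highest mean level 85.3% were called higher, against 26 of the 63 members of that level. Scaling on the hybridisation controls turned the members' median to -0.22 (0.22 over all genes), and no member and no gene passed the test. Here too this scaling takes the spike controls off the nearly common level they had as deposited. With each array centred on its median in place of quantile normalization, 25 members were called lower and 5 higher. With no offset added to the signal none of the 80 members and none of all genes passed the test, although the members' median was -0.74. Leaving out 1 culture left 17 (without ESC culture 2) to 43 members called lower. Shares of all genes called with median centring or without 1 culture are not given here.

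In complex I, 23 of 34 members had a lower pool ratio in EB. Ndufa2, a peripheral-arm accessory subunit, had pool ratios of -2.11, -1.87 and -1.37 in EB and -0.09, -0.22 and -0.50 in ESC, a difference of -1.51 ± 0.20 (limma adjusted p = 0.00345). Ndufa3, at the base of the membrane arm, had ratios of -2.61, -2.44 and -2.49 in EB and -0.999, -1.12 and -1.08 in ESC, a difference of -1.45 ± 0.15 (limma adjusted p = 0.0024). Its other probe sets disagree, with differences of -1.62 and 0.10. For Ndufb2, a membrane-arm subunit, the ratios lay on opposite sides of 0, at -0.9998, -0.44 and -0.38 in EB and 0.77, 0.76 and 0.57 in ESC. No EB culture overlapped an ESC culture in these 3 genes. Ndufc1 (-1.35), Ndufa13 (-1.27), Ndufb5 (-1.15) and Ndufb11 (-1.06) also differed by more than 1 log2 unit. By position in the enzyme, 13 of 18 membrane-arm accessory subunits, 5 of 8 peripheral-arm accessory subunits and 3 of 6 core subunits were called lower. The lower core subunits were the iron-sulfur subunits Ndufs7 (-0.91) and Ndufs8 (-0.71) and Ndufs3 (-0.74).

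The other 3 core subunits of complex I did not pass the test. Ndufs1, the largest iron-sulfur subunit, had pool ratios of 0.46, 0.56 and 0.69 in EB and 0.06, -0.20 and 0.23 in ESC. Its EB cultures lay above its ESC cultures, and the difference of 0.54 ± 0.16 was the highest among members with a limma adjusted p = 0.0585. Ndufv1, which binds NADH, differed by 0.10 (95% interval -0.26 to 0.46), and Ndufv2 by -0.19 (-0.52 to 0.15). Both members of the Ndufa4 pair had a lower ratio in EB, at -0.62 for Ndufa4, which is now counted with complex IV, and -0.61 for Ndufa4l2, the 1 of them that rose in total RNA.

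In complex II, only Sdhb of the 4 members passed the test, with pool ratios of 0.33, 0.47 and 0.20 in EB and 0.76, 0.89 and 1.09 in ESC (difference -0.58 ± 0.16, limma adjusted p = 0.0412). Sdha had ratios of -0.10, 0.42 and 0.14 in EB and -0.06, -0.44 and -0.23 in ESC; 1 EB culture lay within the ESC range, and the difference was 0.40 (95% interval 0.01 to 0.78, limma adjusted p = 0.183). Sdhd (-0.48) and Sdhc (-0.09) did not pass it.

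In complex III the 5 small subunits were called lower and the 3 larger ones were not. Uqcr11 had pool ratios of -2.32, -1.74 and -2.12 in EB and -0.82, -0.78 and -1.15 in ESC, a difference of -1.14 ± 0.18 (limma adjusted p = 0.0058). Uqcr10 differed by -0.90, Uqcrh by -0.80, Uqcrq by -0.72 and Uqcrb by -0.54. The core protein Uqcrc1 had ratios of 0.99, 1.18 and 1.02 in EB and 0.67, 0.57 and 0.73 in ESC. This difference of 0.41 ± 0.15 ran the other way without passing the test (limma adjusted p = 0.105), and Uqcrc2 (0.27) and Uqcrfs1 (-0.21) did not pass it.

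In complex IV, 6 of 10 widely expressed subunits and 2 of 7 tissue isoforms were called lower. Cox8a had pool ratios of -2.33, -1.52 and -1.99 in EB and -0.65, -0.64 and -0.79 in ESC, a difference of -1.25 ± 0.20 (limma adjusted p = 0.00536), and a second probe set of the gene differed by 0.07. Cox6c had ratios of -2.18, -1.53 and -1.91 in EB and -0.92, -0.44 and -0.83 in ESC (difference -1.14 ± 0.20, limma adjusted p = 0.00717). Cox6a1 (-1.03), Cox7a2 (-0.93), Cox5b (-0.91) and Cox7a2l (-0.72), a factor that helps complexes III and IV join into supercomplexes, were lower too. The tissue isoforms called lower were Cox7a1 and Cox6b2, which had risen in total RNA. Cox7a1 had ratios of -1.80, -1.69 and -1.76 in EB and -0.57, -0.37 and -0.55 in ESC, a difference of -1.26 ± 0.15 (limma adjusted p = 0.0024), and Cox6b2 differed by -0.74 ± 0.17 (limma adjusted p = 0.0191). Cox4i1 (-0.54, limma adjusted p = 0.0583), Cox6b1 (-0.50, limma adjusted p = 0.0618), Cox5a (-0.05) and Cox7c (-0.25), whose probe set was dim (mean log2 level 5.99), did not pass the test. The dim isoforms Cox4i2 (-0.19), Cox6a2 (0.28), Cox7b2 (0.25), Cox8b (-0.20) and Cox8c (-0.03) did not pass it either.

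In complex V, 10 of 12 members of Fo and the stalk, the membrane part and its connection, were called lower, and 1 of 5 members of F1, the catalytic head. Atp5k, a small membrane subunit, had pool ratios of -2.75, -2.28 and -2.53 in EB and -1.03, -0.96 and -1.20 in ESC, a difference of -1.46 ± 0.17 (limma adjusted p = 0.0024). Atp5j2 differed by -1.20, although 1 of its other probe sets differed by 0.59, and Atp5l by -1.19. The F1 member called lower was Atp5e, its smallest subunit, at -0.73. The catalytic Atp5b had ratios of 0.70, 0.86 and 1.11 in EB and 1.10, 0.98 and 1.07 in ESC, which overlap, and a difference of -0.16 (95% interval -0.51 to 0.19). Atp5a1 (-0.16), Atp5c1 (-0.35) and Atp5d (-0.24) did not pass the test. Of the genes that encode the same c-ring protein, Atp5g2 differed by -1.08 ± 0.18, although its second probe set differed by -0.08. Atp5g1 differed by -0.97 ± 0.18 and Atp5g3 by 0.07 (95% interval -0.28 to 0.42), and the differences between these genes were not tested. Atp5pb, a stalk subunit, differed by 0.08.

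**Figure D2:**
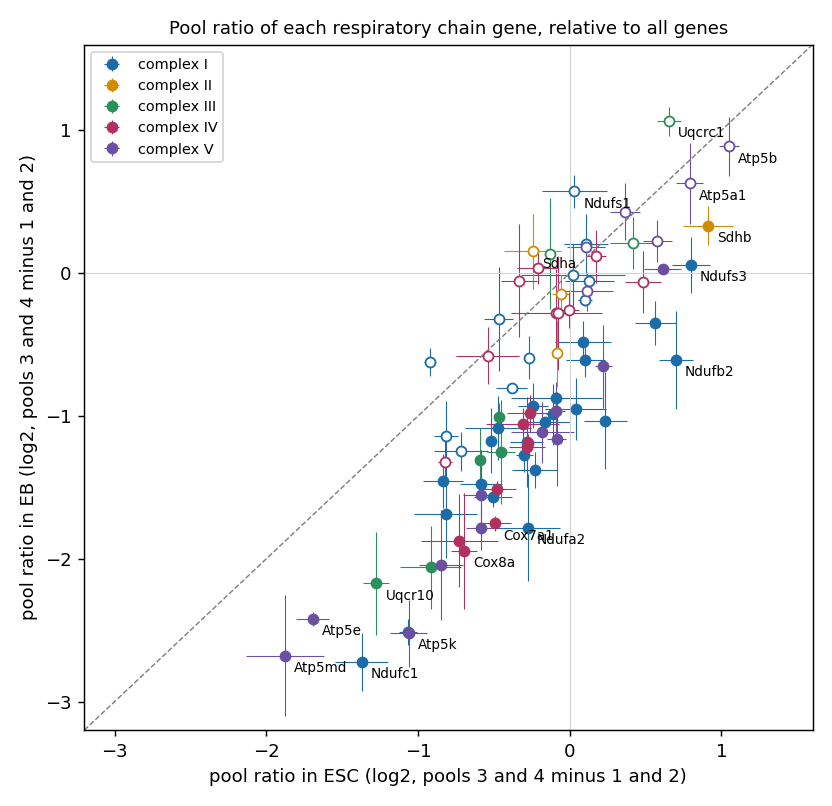
Each point is 1 respiratory chain gene coloured by complex; the y axis is its mean pool ratio in EB and the x axis that in ESC (log2, relative to all genes), bars are the SD over 3 cultures, the dashed line marks equal ratios and filled points passed the test of the difference. The filled points all lie below the line, from Sdhb at 0.33 in EB and 0.91 in ESC down to Ndufc1 at -2.72 in EB and -1.37 in ESC.

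Within each state the members already spanned a wide range of positions. In EB, 53 members had a pool ratio below 0 that passed the test (19.2% of all genes) and 6 had one above 0 (23.2% of all genes), with a median of -0.96. In ESC 31 were below 0 (16.1% of all genes) and 12 above (16.5% of all genes), with a median of -0.24. Of the 10% of genes with the highest mean level, 30% were below 0 and 40.7% above in EB, and 28.1% and 28.7% in ESC. Of the 53 members below 0 in EB, 30 were also called below 0 in ESC and 23 were not. The lowest ratios in EB belonged to Ndufc1 (-2.72), Atp5md (-2.68) and Atp5k (-2.52), and the highest to Uqcrc1 (1.06), Atp5b (0.89) and Atp5a1 (0.63). In ESC the lowest were Atp5md (-1.88), Atp5e (-1.69) and Ndufc1 (-1.37), and the highest Atp5b (1.05), Sdhb (0.91) and Ndufs3 (0.80). Atp5md is a small membrane subunit of ATP synthase. In the core of complex I, 2 of 6 members were called below 0 and 1 above in EB, against none below and 2 above in ESC.

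Most members had their highest relative level in pools 1 and 2. In EB 25 members were highest in pool 1, 34 in pool 2, 15 in pool 3 and 6 in pool 4 (31.25%, 42.5%, 18.75% and 7.5%, against 27.3%, 25.2%, 16.6% and 30.8% of all genes). In ESC 17 were highest in pool 1, 43 in pool 2, 16 in pool 3 and 4 in pool 4 (21.25%, 53.75%, 20% and 5%, against 35.9%, 21.0%, 20.0% and 23.1% of all genes). Cox6c is shown as a member with a large shift. Over pools 1 to 4 it averaged 12.16, 12.23, 10.86 and 9.79 in EB and 12.27, 12.51, 11.70 and 11.61 in ESC. Atp5b ran the opposite way, averaging 11.40, 11.79, 12.17 and 12.80 in EB and 10.98, 11.44, 12.21 and 12.31 in ESC. The level of Cox6c thus differed between the states mainly in pools 3 and 4.

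**Figure D3:**
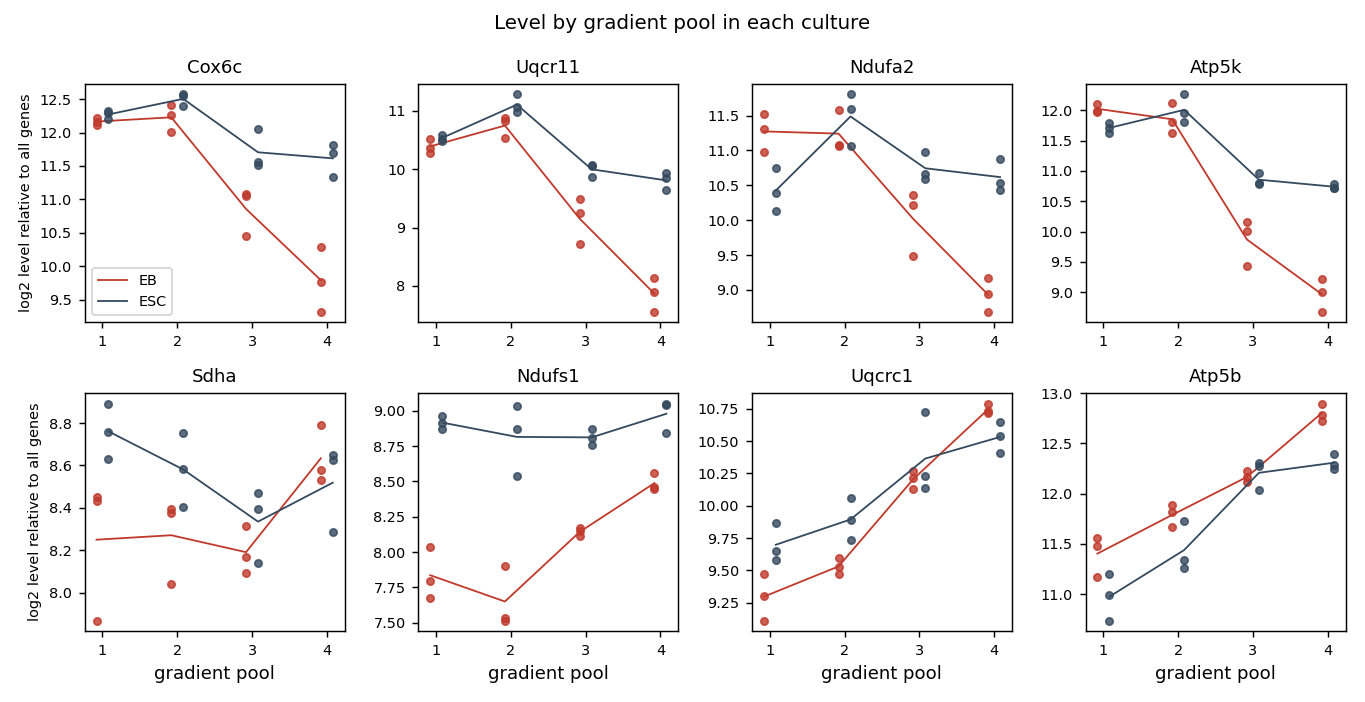
Levels of 8 genes over the 4 gradient pools (x axis), as log2 levels relative to all genes on the 24 pool arrays (y axis, own range for each gene); points are cultures, lines join the means of 3 cultures, EB in red and ESC in dark blue. In the upper row EB levels drop below ESC levels in pools 3 and 4, with Cox6c at 9.79 in EB and 11.61 in ESC in pool 4, while Atp5b is highest in pool 4 in both states.

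The third set of comparisons set EB against ESC within each pool. In pool 4, 55 of 80 members were lower in EB (14.6% of all genes) and 1 was higher (15.4% of all genes). The members' median difference was -0.72, against -0.00 over all genes, and cultures did not overlap for 65 members (43.4% of all genes). Of the 10% of genes with the highest mean level, 30.6% were lower and 23.0% higher, and cultures did not overlap for 67.25%. Members' median levels were 8.97, 9.30 and 9.15 in the EB cultures and 10.20, 10.18 and 10.15 in the ESC cultures. In pool 3, 24 were lower (11.3% of all genes) and 5 higher (11.7%). In pool 2, 1 was lower (3.78% of all genes) and 6 higher (3.35%). In pool 1, 5 were lower (6.53% of all genes) and 22 higher (6.25%), with a median of 0.06. Of the genes with the highest mean level, 17.1% were lower and 15.7% higher in pool 3. These shares were 9.28% and 5.21% in pool 2, and 16.8% and 17.7% in pool 1. Leaving out 1 culture gave 8 (without ESC culture 2) to 16 members called higher in pool 1, and no offset gave 9. Of the 48 members with a lower pool ratio, 40 were lower in pool 4.

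Among the 4 pools, pool 4 held the largest differences of members. Uqcr11 had levels of 7.54, 8.11 and 7.88 in EB and 9.75, 9.81 and 9.54 in ESC, a difference of -1.86 ± 0.15 (limma adjusted p = 0.000132). Cox6c had levels of 9.25, 10.13 and 9.66 in EB and 11.10, 11.53 and 11.43 in ESC, a difference of -1.68 ± 0.21 (limma adjusted p = 0.000796). Ndufa5, a peripheral-arm subunit, had levels of 8.22, 8.47 and 8.17 in EB and 9.72, 10.06 and 10.04 in ESC, a difference of -1.66 ± 0.13 (limma adjusted p = 0.000112). In all 3 genes every EB culture lay below every ESC culture. By group, 16 of 18 membrane-arm and 8 of 8 peripheral-arm accessory subunits of complex I, 9 of 10 widely expressed subunits of complex IV, 6 of 8 members of complex III and 8 of 12 of Fo and the stalk were lower. So were 3 of 6 core subunits of complex I, 2 of 4 members of complex II and 2 of 5 of F1. None of the 7 tissue isoforms of complex IV passed the test in pool 4. The higher member was Atp5b, with levels of 12.24, 12.27 and 12.35 in EB and 11.93, 12.02 and 11.95 in ESC (difference 0.32 ± 0.09, limma adjusted p = 0.0235).

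In pool 1 the members that rose came from several complexes. Cox6b2 was higher in EB by 1.50 ± 0.18, Cox7a1 by 1.40 ± 0.14 and Atp5g2 by 1.39 ± 0.12. Ndufs3 had levels of 8.68, 8.61 and 8.45 in EB and 7.35, 7.53 and 7.28 in ESC, a difference of 1.20 ± 0.10 (limma adjusted p = 0.00337), while in pool 4 its levels of 9.25, 9.25 and 9.06 in EB and 9.20, 9.23 and 9.33 in ESC overlapped. Ndufs1 was lower in EB in every pool, by 1.00 ± 0.10 in pool 1, 1.24 ± 0.22 in pool 2, 0.69 ± 0.11 in pool 3 and 0.47 ± 0.10 in pool 4. Cox6b2 was higher in pools 1 to 3, by 1.39 ± 0.19 in pool 2 and 1.03 ± 0.16 in pool 3, and its 0.34 in pool 4 did not pass the test. With median centring 6 members were called higher in pool 1 in place of 22, and the members' median turned to -0.050.

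**Figure D4:**
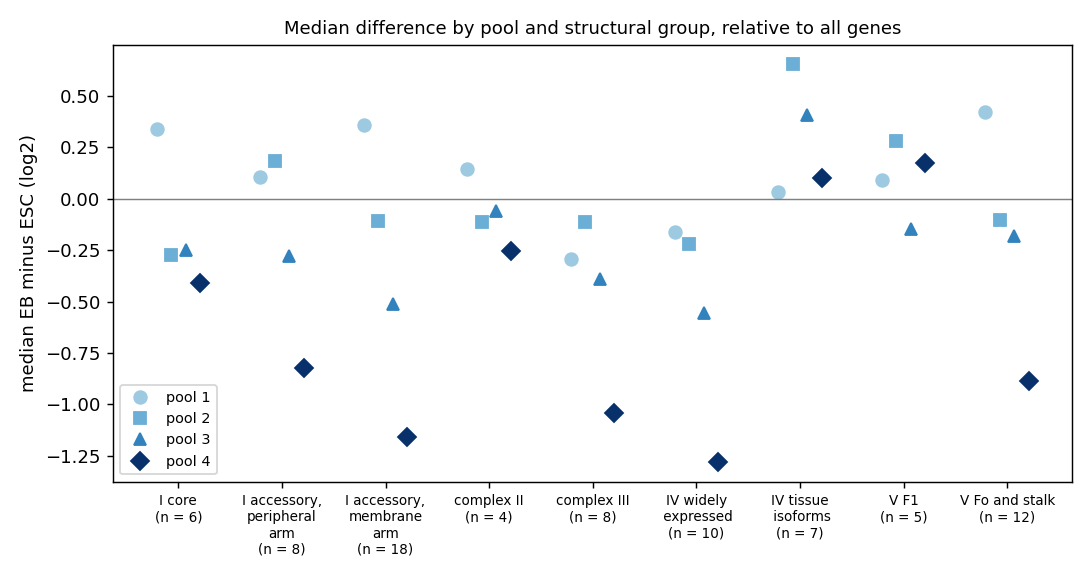
Median EB minus ESC difference (y axis, log2, relative to all genes) of the members of each structural group (x axis, with the number of genes) in pools 1 to 4. In pool 4 the membrane arm of complex I, complex III, the widely expressed subunits of complex IV and the Fo and stalk group reach -1.16, -1.04, -1.28 and -0.89, and the F1 group stands at 0.17.

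**Figure D5:**
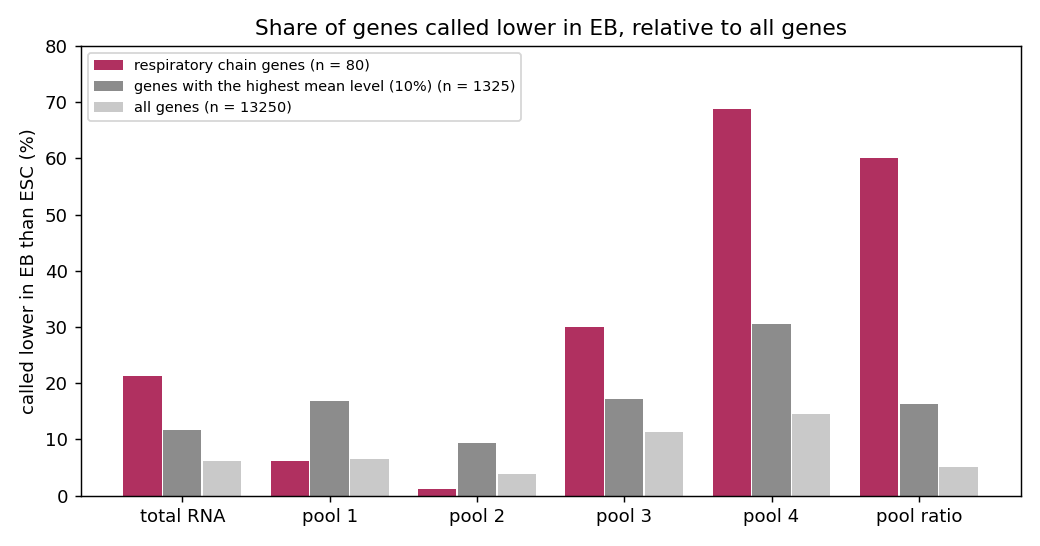
Share of genes called lower in EB than in ESC (y axis, percent, limma adjusted p under 0.05, relative to all genes) in total RNA, in each pool and in the pool ratio, for the 80 respiratory chain genes, for the 10% of all genes with the highest mean level and for all 13250 genes. The respiratory chain bar reaches 68.75% in pool 4, against 30.6% of the genes with the highest level and 14.6% of all genes, and 1.25% in pool 2.

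Genes that work beside the chain were read from lists chosen by name. Of 42 tested assembly factors, which build the complexes and are not part of them, 16 had a lower pool ratio in EB and 1 a higher one (5.16% and 4.18% of all genes), with a median of -0.42. Uqcc2, needed for cytochrome b of complex III, differed by -1.27, Ndufaf8, a complex I factor, by -1.18 and Coa3, a complex IV factor, by -1.18, while Ndufaf1, another complex I factor, was higher by 0.66. In total RNA 5 assembly factors were lower, among them Ecsit (-0.73) and Surf1 (-0.59), and 2 were higher (6.09% of all genes were lower and 6.55% higher). Of 12 citric acid cycle genes none had a lower ratio and 1, Sucla2, had a higher one (0.57), and in total RNA 3 were lower, among them Idh3a (-0.65). Of 14 regulators of the respiratory chain genes and of mitochondrial DNA none had a lower ratio and 1, Yy1, had a higher one (0.96). Gabpa, the DNA-binding subunit of GABP, rose in total RNA by 0.51, as 1 of the 14. Of all genes, 4.18% had a higher pool ratio and 6.55% rose in total RNA. The differences between these lists and the respiratory chain were not tested.

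RNA quality measures moved with the states. The Actb control probe sets gave a 3′ minus 5′ log2 signal of 2.06 to 2.50 in EB total RNA and 2.77 to 3.31 in ESC total RNA, and of 0.46 to 1.01 in EB pool 4 and 1.34 to 3.54 in ESC pool 4. The change of this measure between pools, pools 3 and 4 minus pools 1 and 2, was -0.94, -1.30 and -1.32 in the EB cultures and -2.06, -1.09 and -1.60 in the ESC cultures, which overlap. Its part in the results was not tested. Of 43 members with more than 1 probe set past the filter, all probe sets had the same sign for 33 in the pool ratio and for 28 in total RNA relative to all genes. Probe sets whose names end in _s_at or _x_at can match transcripts of other genes or pseudogenes: 11 and 6 members were read from these, with 6 and 4 called lower in the pool ratio. Of those ending in _at and _a_at alone, 17 of 34 and 21 of 29 were called lower.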

How the data were processed

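RNA from 4 gradient pools and total RNA was measured on 30 arrays, 3 cultures in each of 10 groups. The deposited values are log2 signals per probe set; per the submitters' processing notes MAS5 and affy were used, and their settings are not given in the sources used here. The deposited log2 values were converted to a linear scale and put back on log2 after an offset of 32. Probe sets with 1 gene symbol were kept (34945 of 45101; 932 name several genes, 9160 none and 64 are controls), the dimmest 40% were dropped, and each gene was read from its brightest probe set. Values relative to all genes were quantile normalized over the arrays of the fit. R 4.3.3 and limma 3.58.1 (lmFit and eBayes, two-sided) were used with Benjamini-Hochberg adjustment over 13250 genes and a threshold of 0.05, and the fits were tested on simulated data. The exact permutation test of 3 against 3 cultures cannot go below p = 0.1, so adjusted p-values come from limma. The number of arrays limits the precision.

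Members, lists and tests were chosen with earlier results of these data known. Named members are the 2 highest and 2 lowest of each complex by difference, those called (up to 12), isoform families and the complex I core; some others were named after their values were seen. Same-numbered EB and ESC cultures were not treated as pairs. Alternatives were no offset, no filter, median centring, scaling on the hybridisation controls, the mean over probe sets, another pool ratio, a trend in the variance model, a replicate block and leaving out each culture; the ratio without pool 2 was added after seeing the data.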

Additional observations from a re-analysis of the deposited data

Results flagged for a closer look

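The pool ratio of respiratory chain genes differed between EB and ESC: 48 of 80 members were called lower in EB than in ESC by the test of the difference itself (limma, adjusted p under 0.05, relative to all genes), against 5.16% of all genes. Over members, the median ratio was -1.05, -0.81 and -0.91 in the EB cultures and -0.14, -0.20 and -0.30 in the ESC cultures.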

How the results depend on the processing

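Values are in the order of the settings named, all relative to all genes unless the deposited scale is named. The causes of these shifts were not tested. Most counts stand without the share of all genes called under the same setting and show only how the calls depend on the processing. With scaling on the hybridisation controls, total RNA on the deposited scale had 5 members called higher (main 77; median 0.092), and the deposited pool ratio had 0 called higher (main 35), with its median reversed to -0.22; this ratio had 23 called higher with no offset and 8 as pool 4 minus pool 1. In total RNA 17 members were called lower, and 6 with no filter on dim probe sets, 8 with no offset, 3 with the replicate block and 39 with a trend, which called 6 higher in place of 3. For the pool ratio difference the 48 called lower became 0 with no offset (the same 0 over all genes) and 25 with median centring (median -0.35); 2 were called higher with the mean over probe sets and 5 with median centring, and the median was -1.14 as pool 4 minus pool 1. Within EB, 10 were called higher with the mean over probe sets and 10 with median centring in place of 6, and the median was -0.82 and -0.77 under these, -1.23 as pool 4 minus pool 1 and -0.74 without pool 2. Within ESC, median centring called 6 higher in place of 12 (median -0.35), and the median was -0.12 without pool 2. In pool 1, 9, 6 and 13 were called higher in place of 22 with no offset, median centring and the replicate block, 3 and 3 lower in place of 5 under no offset and median centring, and the median reversed to -0.050 with median centring. In pool 2, 1, 2 and 3 were called higher in place of 6 under no offset, median centring and the block, and 2 lower in place of 1 with no filter, the mean over probe sets or median centring, 0 with no offset and 5 with a trend (median -0.26 with median centring). In pool 3, no offset called 3 higher and 13 lower in place of 5 and 24, and the median was -0.35 with the mean over probe sets and -0.18 with median centring. In pool 4, 3, 5, 7 and 2 were called higher in place of 1 with no filter, the mean over probe sets, median centring and a trend (median -0.57 with median centring). Leaving out each culture in turn gave 3 to 6 called lower in total RNA, 17 to 43 in the pool ratio difference and 14 to 23 in pool 3, and 8 to 16 called higher in pool 1, 0 to 6 in pool 2, 3 to 6 in pool 3 and 0 to 2 in pool 4. Pool 2 then had 0 to 2 called lower, and medians ran from 0.034 to 0.12 in pool 1 and from -0.33 to -0.20 in pool 3. Among single members, Atp5g2 reversed in total RNA to -0.39 with the mean over probe sets and Cox7b2 to -0.60 with median centring. Same-numbered EB and ESC cultures deviated together with correlations of 0.07, 0.10 and 0.02 in the pool ratio and 0.01, 0.02 and 0.04 in total RNA, so the numbers were not taken to pair them; with the block 46 members were called lower in the pool ratio. Signals near the lowest value limit Cox4i2, Cox6a2, Cox7b2, Cox7c, Cox8b and Ndufb4.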
